A study of Caenorhabditis elegans with 23 samples.

Results

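The transthyretin-related (ttr) genes of Caenorhabditis elegans were described across 19 total RNA sequencing libraries of young adult hermaphrodites. Members were all genes whose name starts with ttr- in the WBcel235 annotation, which gave 58 genes among 22101 protein-coding genes and pseudogenes. The values are RPKM, reads scaled to window length and library size, in 1 kb windows along the genome. A gene took the mean of the windows that it overlapped by at least 500 bp, or its best window. Of the 58 genes, 54 could be placed on the windows and 45 had a mean of at least 1 RPKM, the level from which genes were tested.

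The ttr genes encode a large nematode family of small, mostly secreted proteins that share a transthyretin-like fold with the vertebrate thyroid hormone carrier transthyretin. Few members have a known role. TTR-52 binds phosphatidylserine on dying cells and bridges them to the engulfment receptor CED-1, and TTR-33 protects dopaminergic neurons from oxidative damage. HRDE-1, the protein removed in many of these strains, is a germline nuclear Argonaute that carries small RNA silencing across generations. SET-32 is a putative histone H3 lysine methyltransferase, while SET-25 and MET-2 methylate histone H3 in heterochromatin.

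Each genotype and generation was 1 library. In 5 strains hrde-1 had never been mutated: N2, the wild-type reference strain; the set-32(red11) strain; the set-32(ok1457) strain; a met-2(n4256) set-25(n5021) strain, called met-2 set-25 from here on; and met-2 set-25 with set-32(ok1457). Another 5 carried hrde-1(tm1200), alone or with set-32(ok1457), with set-32(red11), with met-2 set-25, or with met-2 set-25 plus set-32(red11). The other 9, marked hrde-1(+R), are known from the study as lines in which the hrde-1 mutation was repaired, sampled in later generations: hrde-1(+R) at F4 and F5, with set-32(ok1457) at F5 and F8, with set-32(red11) at F4 and F5, with met-2 set-25 at F3 and F5, and with set-32(red11) and met-2 set-25 at F5. The combination of set-32(red11), met-2 and set-25 with never-mutated hrde-1, and that of set-32(ok1457), met-2 and set-25 with hrde-1(tm1200), were not analysed here. Strains that shared an allele state stood in for replicates. A p-value here therefore sets a fitted difference against the spread left between strains and generations after the fitted terms for the mutations. A line and its genotype cannot be told apart. Generations of 1 repaired genotype may also come from the same line, which the labels leave unsaid. In RNA from whole worms, fewer cells of a type and less RNA per cell cannot be told apart either.

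The met-2 windows read 6.54 to 9.87 RPKM in the 7 mutant libraries and 25.80 to 47.42 RPKM in the 12 others. Those of hrde-1 (85.57 to 139 RPKM with tm1200, 125.44 to 271.13 without), set-32 and set-25 were lower in mutants with overlapping ranges, except that set-32(red11) libraries (3.28 to 6.51 RPKM) lay below all libraries with intact set-32 (9.11 to 18.18 RPKM). Where each lesion lies within these windows was not examined.

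The libraries were shallow, with 458686 to 1152738 reads behind the RPKM scale, so that 1 read in a window was worth 0.8675 to 2.18 RPKM. Genes of the adult intestine and yolk summed to 7020 to 11400 RPKM and genes of oocytes and eggshell to 2990 to 5220 RPKM. Sperm genes ranged more widely, from 82.1 to 1550 RPKM, and cuticle collagen genes from 7390 to 24700 RPKM. The library hrde-1(+R) F4 had the highest collagen sum and 495050 reads.

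The family spans all 6 chromosomes: 22 genes lie on V, 12 on X, 10 on IV, 9 on III, 3 on I and 2 on II. Together the placed genes summed to 812 ± 138 RPKM (SD, n = 19 libraries), and the 6 highest windows held 59.8% of that sum. By window value, 7 genes had a mean above 40 RPKM, 9 lay between 10 and 40, 29 between 1 and 10, and 9 below 1. The median of the 54 means was 3.97 RPKM. Values above 0 were found in every library for 24 members.

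**Figure D1:**
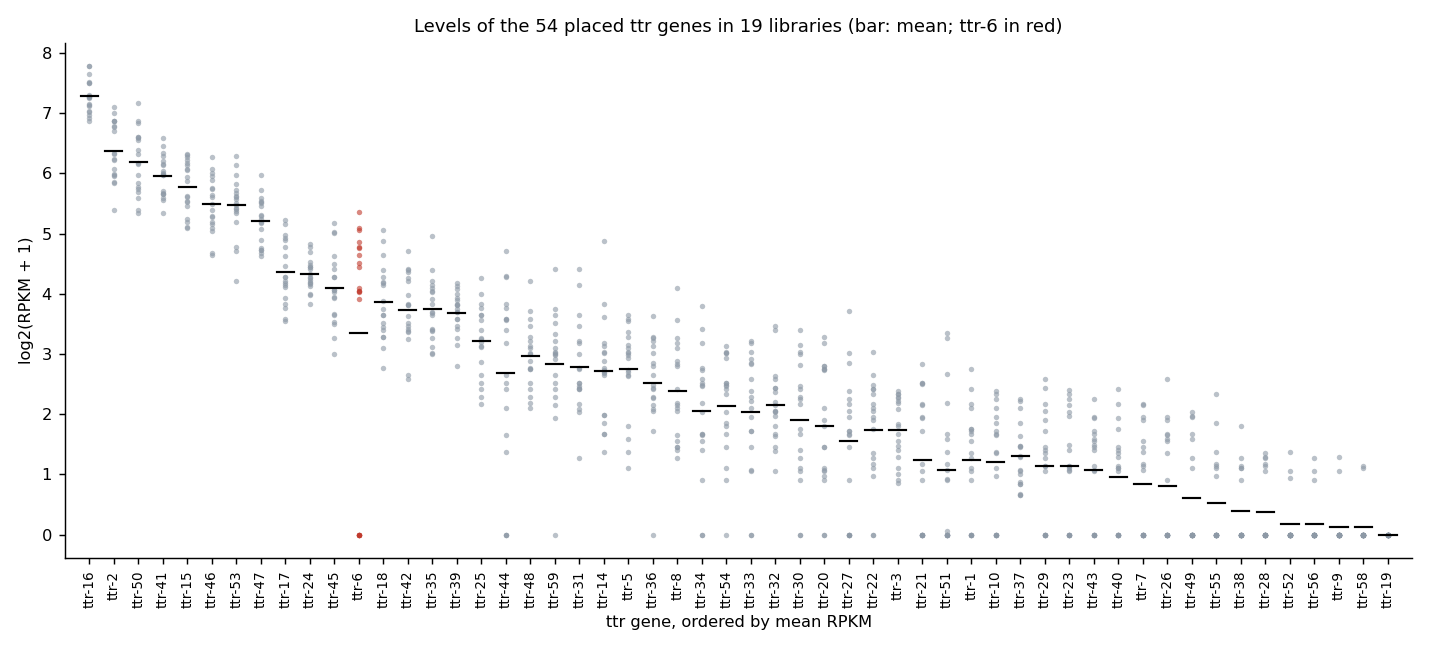
Level of each of the 54 placed ttr genes, ordered by mean RPKM along the x axis. The y axis gives log2(RPKM + 1), each dot is 1 of 19 libraries and each bar is the mean. Most genes form a column of dots around their bar, and ttr-6, in red, has 5 dots at 0 and 14 at 14.01 to 40.18 RPKM.

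Between genes, levels can be compared only per length of exon, because a 1 kb window holds different amounts of exon. Over the windows with at least 100 exon bases of a gene, RPKM was therefore summed and divided by the kilobases of exon of any gene there, giving RPKM per exon kb. This measure was chosen after the data were seen, because dividing the window value by its exon share put ttr-15, whose windows hold almost no exon, at 3304 RPKM. The highest member with no other gene's exons in its windows was ttr-2 (III 9927769 to 9929004, plus strand), at 249 RPKM per exon kb. Next among such members came ttr-41 (II 4727328 to 4727869, minus strand) at 127 and ttr-53 at 63.96 RPKM per exon kb.

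Other high members had company in their windows, and their reads cannot be assigned to 1 gene. The windows of ttr-16 (IV 11063530 to 11064137, minus strand) held 675 exon bases of lin-3, the epidermal growth factor ligand, and gave 178.5 RPKM per exon kb. Those of ttr-15 (III 10337847 to 10339440, plus strand) held 522 bases of other exons and gave 208.6, and those of ttr-51 held 326 such bases and gave 215.2 RPKM per exon kb. For ttr-15 and ttr-51 the windows chosen by overlap with the gene body held only 17 and 72 exon bases, so the 56.2 and 1.93 RPKM measured there mostly describe intron. The members ttr-50 and ttr-46 stood at 81.2 and 65.1 RPKM per exon kb, with 97 and 126 bases of other exons.

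In the ttr-2 window the 5 never-mutated libraries read 73.62 RPKM in N2, 135.72 in set-32(ok1457), 62.81 in set-32(red11), 79.52 in met-2 set-25 and 116.32 in set-32(ok1457) met-2 set-25. The 5 hrde-1(tm1200) libraries lay at 41.11 to 109.01 RPKM and the 9 repaired ones at 56.09 to 126.68 RPKM. The 3 hrde-1 groups overlapped, while the 5 set-32(ok1457) libraries all stood above the 6 set-32(red11) libraries, a difference taken up below. The least variable tested members were ttr-24, with an SD of 0.27 on the log2(RPKM + 1) scale, ttr-16 with 0.28 and ttr-41 with 0.33. The windows of ttr-24 and ttr-16 hold exons of another gene as well.

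Among the 45 tested members the median SD over the 19 libraries was 0.79 on the log2(RPKM + 1) scale, against 0.40 over all genes tested. The 2 sets were not matched for level: 29 of the 45 members averaged 1 to 10 RPKM, and the median mean over all genes tested was 8.67 RPKM. The most variable were ttr-6 (2.09), ttr-44 (1.48), ttr-51 (1.15), ttr-27 (1.13) and ttr-21 (1.09). With the means of ttr-51, ttr-27 and ttr-21 at 1.93, 2.87 and 2.02 RPKM, a window held a read or a few reads, and counting error alone gives such values a wide spread. The window of ttr-44 (V 13529545 to 13530744, minus strand) averaged 8.41 ± 7.12 RPKM. It was listed at 0 in N2, hrde-1(+R) F5 and set-32(red11) hrde-1(+R) F5, and reached 25.28 RPKM in set-32(ok1457) hrde-1(+R) F5 and 18.64 in set-32(ok1457). The hrde-1 groups overlapped at ttr-44, and the set-32 alleles did not.

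Members with known roles were weakly covered. At ttr-52, the engulfment bridge, 3 of 19 libraries were above 0, with a mean of 0.19 RPKM, so it was not tested. At ttr-33 the mean was 3.89 ± 2.62 RPKM, and the window also held 134 exon bases of txt-5. Of 19 genes of cell corpse engulfment and phosphatidylserine exposure, chosen to accompany ttr-52, 18 were tested. They included ced-1, the receptor that TTR-52 binds, at 7.95 ± 1.42 RPKM, and ced-9, an inhibitor of programmed cell death, at a mean of 56.6 RPKM, from 41.58 to 80.05. None of the 18 was called in any of the 9 comparisons below. A pair of other transthyretin-like genes named only by sequence identifiers was also examined: R09H10.3 averaged 5.13 ± 2.74 RPKM and ZK697.8 was listed at 0 in all 19 libraries.

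Many ttr genes sit beside each other: 29 of the 58 have another member within 10 kb. Close neighbours often differed greatly in level. On III ttr-1 begins 73 bp past the end of ttr-2, yet it gave 6.47 RPKM per exon kb against 249 for ttr-2, and ttr-3, 1019 bp on the other side, gave 6.68. On IV, ttr-53 and ttr-54 are separated by 1267 bp and gave 63.96 and 15.8 RPKM per exon kb, the latter with 382 bases of other exons in its windows. By window value ttr-2 was above ttr-1, and ttr-53 above ttr-54, in 19 of 19 libraries.

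The other clusters can be set out in the same unit, RPKM per exon kb. On IV, ttr-17, 1882 bp from ttr-16, gave 48.1 beside 178.5 there, and ttr-45, 1914 bp from ttr-51, gave 51.9 beside 215.2. In the V cluster of ttr-24, ttr-25 and ttr-26 the values were 46.96, 41.01 and 9.73. The windows of ttr-24 held 234 exon bases of ttr-25, and those of ttr-25 held 250 bases of other exons. The values of ttr-24 and ttr-25 therefore rest partly on the same reads. In the V cluster of ttr-27, ttr-28 and ttr-29 the values were 7.11, 1.08 and 2.67. On X, ttr-35 and ttr-36 gave 21.3 and 17.02, and ttr-59 and ttr-30 gave 8.25 and 5.82. The windows of ttr-59 held 446 bases of other exons. The pairs ttr-8 and ttr-32 on III (7.94 and 7.28) and ttr-40 and ttr-49 on V (3.54 and 3.58) all share windows with exons of other genes. On I, the adjoining ttr-55, ttr-56 and ttr-58 averaged 0.675, 0.178 and 0.123 RPKM by window and were not tested. The cluster of ttr-11, ttr-57 and ttr-12 near the right end of V, and ttr-13 beside it, could not be placed.

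The gene with the clearest pattern across strains was ttr-6 (WBGene00020886, X 6596425 to 6597121, minus strand), a member with no neighbouring paralog within 10 kb. Its value comes from 1 window, which holds most of the gene and also 139 exon bases of fbxl-4. The right end of ttr-6 lies in the next window. It was singled out with results of these libraries known, because its window was lower with hrde-1(tm1200), so its values in the hrde-1(tm1200) contrast are given as a description.

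In the 5 never-mutated libraries ttr-6 stood at 24.07 RPKM in N2, 32.97 in set-32(ok1457), 21.91 in set-32(red11), 40.18 in met-2 set-25 and 32.25 in set-32(ok1457) met-2 set-25. In the hrde-1(tm1200) libraries it stood at 14.01 RPKM in hrde-1(tm1200), 15.26 with set-32(ok1457) and 25.96 with set-32(red11), and was listed at 0 both with met-2 set-25 and with set-32(red11) met-2 set-25. After repair it stood at 16.16 and 26.5 RPKM in hrde-1(+R) F4 and F5, 15.56 and 28.05 in set-32(ok1457) hrde-1(+R) F5 and F8, and 15.61 and 20.77 in set-32(red11) hrde-1(+R) F4 and F5. It was listed at 0 in met-2 set-25 hrde-1(+R) F3 and F5 and in hrde-1(+R) F5 with both set-32(red11) and met-2 set-25. All 5 met-2 set-25 libraries that carried tm1200, or were repaired lines, were therefore at 0, and the 2 met-2 set-25 libraries with never-mutated hrde-1 were above the mean of the rest.

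**Figure D2:**
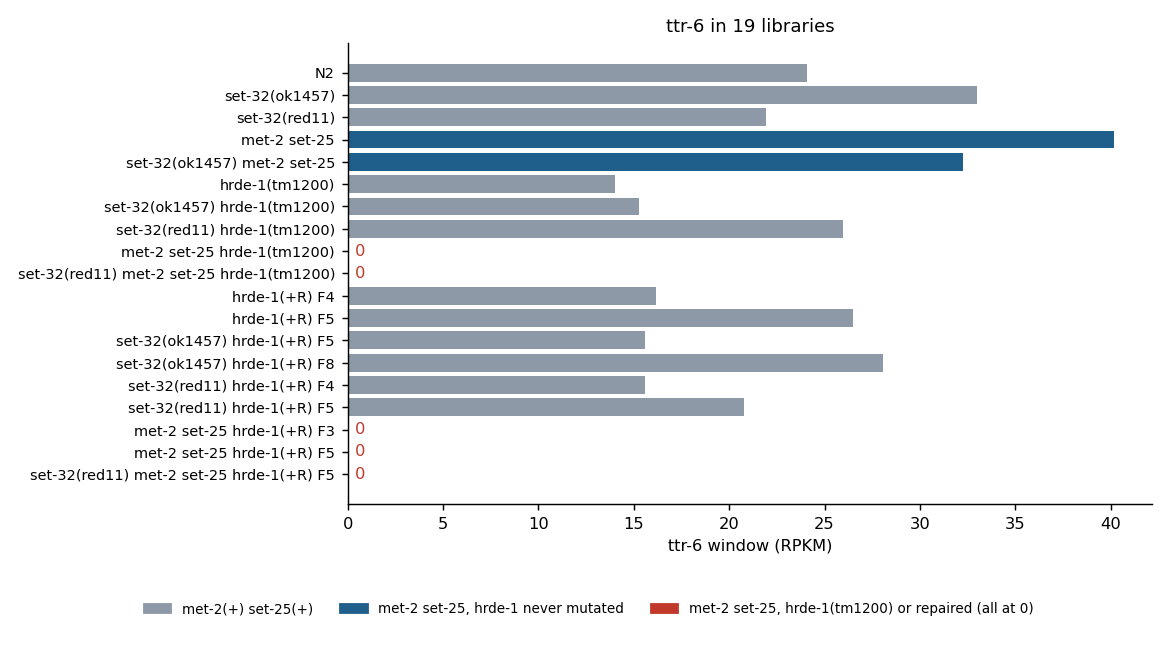
RPKM of the ttr-6 window on the x axis, from 0, with 1 bar for each of 19 libraries. Grey bars are strains with intact met-2 and set-25, blue bars are met-2 set-25 strains with never-mutated hrde-1 (40.18 and 32.25 RPKM), and a red 0 marks the 5 met-2 set-25 libraries with hrde-1(tm1200) or repaired hrde-1.

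The other 14 libraries averaged 23.5 ± 7.98 RPKM, from 14.01 to 40.18. Over the reads of the 5 libraries together, 4060499, a floor of 3 reads corresponds to 0.739 RPKM. Against that floor ttr-6 was at least 31.8-fold lower in the 5 libraries than the mean of the 14. At the mean of the 14, the 5 libraries would have held 95.5 reads of ttr-6. These limits cover counting error only, since reads are not independent molecules. Of 11781 genes tested, 1 (0.00849%) was at 0 in all 5 and above 0 in all 14, and of 41323 windows 1 (0.00242%), in both cases that of ttr-6. This grouping of 5 against 14 follows the genotype labels and was chosen after the values of ttr-6 were seen.

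Without requiring 0, 3 genes (0.0255%) were lower in all 5 libraries than in any of the 14, ttr-6, C23H5.8 and Y69H2.3, and 3 (0.0255%) were higher. The other 2 lower genes were reduced on a smaller scale, with C23H5.8 at a mean of 18.2 RPKM in the 5 and 38.4 in the 14, and Y69H2.3 at 11.1 and 17.4 RPKM.

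The window next to that of ttr-6, 1 kb to the right, holds the right end of ttr-6. That window was also at 0 in 5 of 5 libraries, but it was low in the others. There, 12 of 14 were above 0, with a mean of 2.72 RPKM. The windows 2 and 3 kb to the right were above 0 in 1 and 2 of 5 libraries, with means of 0.63 and 0.554 RPKM, and in 8 of 14 others, with means of 1.36 and 0.711 RPKM. On the left, the window at 1 kb was above 0 in 4 of 5, and those at 2 and 3 kb in 5 of 5. The window 3 kb to the left averaged 14.3 RPKM in the 5 libraries and 19.4 in the 14. The windows 4 and 5 kb to the right were above 0 in 5 of 5. The neighbouring gene fbxl-4 averaged 3.01 RPKM in the 5 libraries and 3.51 in the 14, with overlapping ranges.

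**Figure D3:**
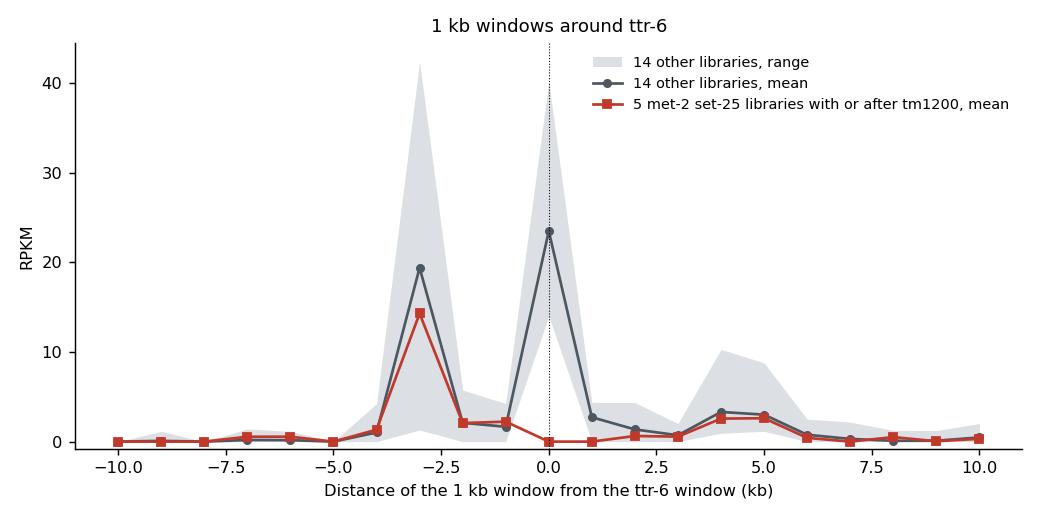
Mean RPKM (y axis) of 1 kb windows against their distance from the ttr-6 window in kb (x axis), for the 5 met-2 set-25 libraries with or after tm1200 (red squares) and the 14 others (grey dots, with the shaded range). Only at the ttr-6 window does the red line, at 0 there, leave the grey range. At the next window to the right, which holds the right end of ttr-6, it is also at 0, where the grey range runs from 0 to 4.38 RPKM.

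Fold changes were fitted with limma on log2(RPKM + 1) over all tested genes, with Benjamini-Hochberg adjustment, and a gene was called where its adjusted p was under 0.05 and its fold change was at least 1 on the log2 scale in either direction. The loss of met-2 and set-25 after repair was fitted in the 9 repaired libraries, none of which entered the contrast in which ttr-6 was singled out. The repaired met-2 set-25 lines may still descend from the hrde-1(tm1200) strains at 0 in that contrast. The labels leave this unsaid, so these libraries need not be independent of it. In met-2 set-25 libraries with never-mutated hrde-1, outside this fit, ttr-6 was at 40.18 and 32.25 RPKM. In the 3 repaired met-2 set-25 libraries ttr-6 was at 0. In the 6 other repaired libraries it was at 15.56 to 28.05 RPKM, with a median of 18.46, so the groups did not overlap. The fitted change was -4.40 ± 0.27 (SE) on the log2 scale, with a limma adjusted p of 0.000143. It was 1 of 2 genes called lower, 0.017% of those tested, beside met-2 itself, and 0.0% were called higher. The size depends on the pseudocount, because 1 group is at 0, and ran from -7.66 to -2.34 over 21 alternatives, in all of which it was called.

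In the 10 libraries without repair, the interaction asks whether hrde-1(tm1200) changed ttr-6 differently with and without met-2 set-25. Without met-2 set-25, the 3 never-mutated libraries (21.91 to 32.97 RPKM) and the 3 hrde-1(tm1200) libraries (14.01 to 25.96 RPKM) overlapped. With met-2 set-25, 40.18 and 32.25 RPKM stood against 0 and 0. The interaction was -4.69 ± 0.46 on the log2 scale with a limma adjusted p of 0.0139, and ttr-6 was the single gene called lower (0.00849%), with 0.0% called higher. The value comes from the libraries in which ttr-6 was singled out, and the call was kept in 11 of 22 alternatives. Among these, leaving out any 1 of 6 libraries lost the call: N2 (adjusted p = 0.0981), set-32(red11) (0.051), met-2 set-25 (0.269), set-32(ok1457) met-2 set-25 (0.114), hrde-1(tm1200) with met-2 set-25 (0.13) and hrde-1(tm1200) with both of set-32(red11) and met-2 set-25 (0.172), while the fitted value stayed between -4.96 and -4.42.

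Pooled over strains, hrde-1(tm1200) against never-mutated hrde-1 gave ttr-6 a value of -2.40 ± 0.72 on the log2 scale, not called by limma at gene level (adjusted p = 0.414). Without the pair of hrde-1(tm1200) libraries that lack met-2 and set-25, an alternative added after seeing the data, the value was -0.52 ± 0.29 (adjusted p = 1.0). In the fit on single windows, the pooled value was called (adjusted p = 0.0383). The corresponding value for repaired against never-mutated libraries was -2.29 ± 0.64 (adjusted p = 0.478), and -0.33 without the met-2 set-25 libraries. For met-2 set-25 loss without repair it was -1.87 ± 0.75 (adjusted p = 0.641), a mean of libraries at 0 and libraries above 32 RPKM.

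Changes in set-32 left ttr-6 within the spread. Its limma value was 0.12 ± 0.75 on the log2 scale for set-32 loss without repair (adjusted p = 1.0) and -0.06 ± 0.25 after repair (adjusted p = 0.993). Repaired against hrde-1(tm1200) libraries gave 0.21 ± 0.64 (adjusted p = 0.955). In the last 3 comparisons the spread between strains allows changes of that SE and more in either direction.

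No other ttr gene was called in any of the 9 comparisons. For hrde-1(tm1200) against never-mutated hrde-1, 0 of 45 members were called, with 0.509% of all genes called higher and 0.0255% lower. At an unadjusted p under 0.05 there were 2 members and 699 genes. Nevertheless the members leaned to one side: 37 of 45 values were below 0, and their median was -0.33 on the log2 scale, against -0.06 over all genes, of which 40.7% were positive. Among the 16 members averaging at least 10 RPKM, 15 were below 0, with a median of -0.25. The median lay between -0.50 and -0.16 over 26 alternatives.

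The depth of the hrde-1(tm1200) libraries (458686 to 924437 reads) reached lower than that of the never-mutated ones (697525 to 912842). In the body muscle list 0 of 13 values were above 0 and 0 genes were called, with a median of -0.25 and sums of 673 to 1340 RPKM against 689 to 1600. The cuticle collagens, with 46 of 125 above 0 and a median of -0.11, summed to 11900 to 17100 against 13900 to 21600 RPKM. Sperm genes had 31 of 39 values above 0 and a median of 0.34, with sums of 272 to 502 against 82.1 to 841 RPKM, and 0 of the collagen or sperm genes were called. The set-32 alleles were also uneven, with more set-32(ok1457) libraries in the never-mutated group and more set-32(red11) libraries in the hrde-1(tm1200) group. The fit pooled both alleles, and 36 of 45 members were higher in set-32(ok1457), as set out below. In 4 pairs matched by genetic background, a fit added after seeing the data, the members' median was -0.29. The part of depth, set-32 allele, muscle, collagen and sperm genes in the members' lean was not tested.

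Beside ttr-6, the members with the lowest values for hrde-1(tm1200) were ttr-34 and ttr-20. At ttr-34 (X 13139793 to 13140886, plus strand) the never-mutated libraries read 5.66 RPKM in N2, 12.90 in set-32(ok1457), 2.19 in set-32(red11), 5.02 in met-2 set-25 and 4.61 in set-32(ok1457) met-2 set-25. The hrde-1(tm1200) libraries read 0 in hrde-1(tm1200), 2.18 with set-32(ok1457), 2.16 with set-32(red11), 3.10 with met-2 set-25 and 0 with set-32(red11) met-2 set-25. Only 1 never-mutated library, set-32(red11), fell within the range of the hrde-1(tm1200) group. The difference of -1.58 ± 0.52 was not called by limma (adjusted p = 0.533). For ttr-20 the value was -1.07 ± 0.56 (adjusted p = 0.898). The highest values were 0.59 ± 0.31 at ttr-48, 0.54 ± 0.46 at ttr-40 and 0.50 ± 0.51 at ttr-22, none called.

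**Figure D4:**
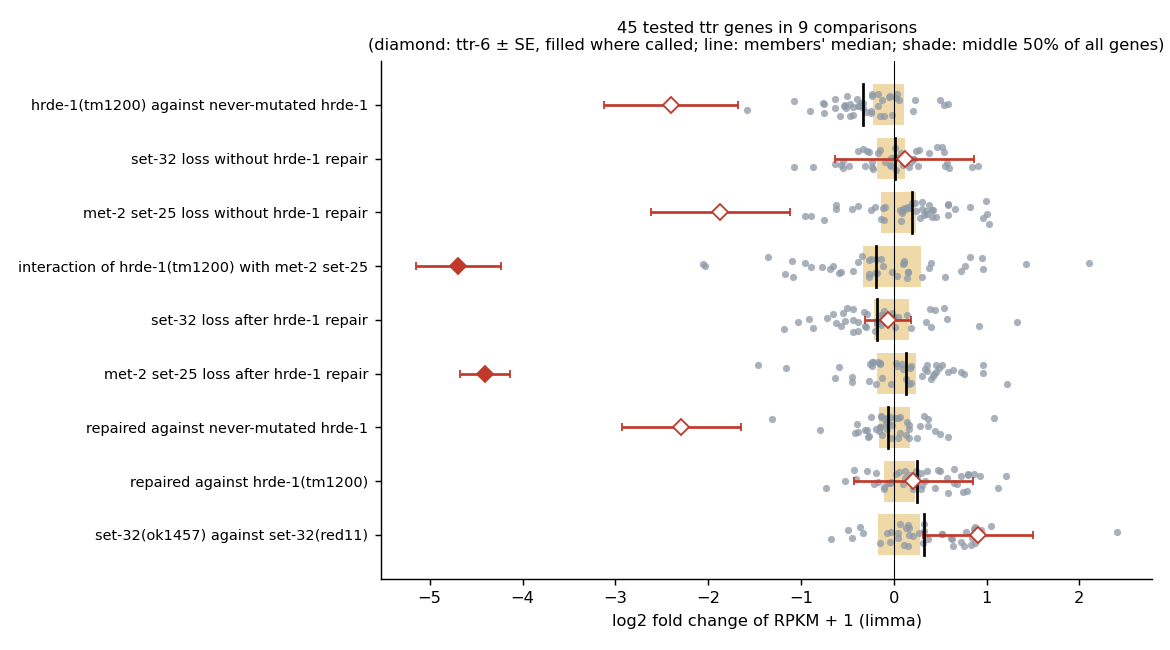
Fitted log2 fold change of RPKM + 1 (x axis) for the 45 tested ttr genes in 9 comparisons (y axis). Grey dots are members other than ttr-6, diamonds are ttr-6 with its SE and are filled where called, black lines are the members' medians and shaded bars span the middle 50% of all genes tested. The filled diamonds, at -4.69 and -4.40, lie far from the other members, which stay between -2.05 and 2.41.

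For repaired against hrde-1(tm1200), which uses the same hrde-1(tm1200) libraries, 0 of 45 members were called, against 0.017% of genes higher and 0.45% lower, with 6 members and 983 genes at an unadjusted p under 0.05. Here 32 of 45 values were above 0 and the median was 0.25, against 0.07 over all genes. With 0 genes called in each list, sperm genes had 1 of 39 above 0 and a median of -0.44 (88.6 to 1550 against 272 to 502 RPKM), body muscle genes 1 of 13 and -0.23 (534 to 1390 against 673 to 1340 RPKM) and pharynx genes 1 of 5 and -0.61 (15.6 to 102 against 50.4 to 84.2 RPKM), and their part in the members' values was not tested. The highest were ttr-34 at 1.21 ± 0.50 (limma adjusted p = 0.524), ttr-33 at 1.12 ± 0.50 (0.565) and ttr-31 at 0.93 ± 0.38 (0.512). At ttr-34 the repaired libraries ran from 0.87 to 9.64 RPKM with a median of 4.56, and overlapped the hrde-1(tm1200) range of 0 to 3.10. The lowest were ttr-40 (-0.73), ttr-48 (-0.53) and ttr-27 (-0.43). For repaired against never-mutated libraries the members' median was -0.06, against 0.02 over all genes. Here 0 members were called, against 0.0849% of genes higher and 0.0255% lower, with 3 members and 711 genes at an unadjusted p under 0.05. Body muscle genes had 0 of 13 values above 0 and a median of -0.48, pharynx genes 1 of 5 and -0.46. Intestine and yolk genes had 3 of 16 and -0.23, cuticle collagens 38 of 125 and -0.24, and oocyte and eggshell genes 9 of 14 and 0.04. In each list 0 genes were called, and their part was not tested. These comparisons share libraries with each other and with the hrde-1(tm1200) contrast.

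In that comparison of repaired with never-mutated libraries, ttr-10 came after ttr-6 at -1.31 ± 0.42 (limma adjusted p = 0.606). It read 1.15 to 4.25 RPKM in the 5 never-mutated libraries and 0 to 4.04 RPKM, with a median of 0, in the 9 repaired ones. It was at 0 in 5 of the 9 repaired libraries, among them all 3 with met-2 set-25, and in no never-mutated library. At these levels a value above 0 is 1 to 3 reads. The other extremes were ttr-27 at -0.79, ttr-22 at 1.08, ttr-32 at 0.58 and ttr-31 at 0.50, none called.

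The loss of set-32 was compared once without and once after repair, in libraries that do not overlap. Without repair 0 of 45 members were called (0.0% of genes either way), with 2 members and 403 genes at an unadjusted p under 0.05, and the median was 0.01 against -0.04 over all genes. The lowest values were ttr-21 (-1.07), ttr-29 (-0.87) and ttr-27 (-0.63), and the highest were ttr-51 (0.91), ttr-1 (0.84) and ttr-45 (0.60). After repair 0 were called (0.0934% of genes higher and 0.0% lower), with 2 members and 636 genes at an unadjusted p under 0.05. The median was then -0.18 against -0.01, with 32 of 45 below 0. Of the other lists, with 0 genes called in each, cuticle collagens had 22 of 125 values above 0, a median of -0.86 and sums of 7610 to 19600 RPKM in set-32 mutants against 7390 to 24700. Hypodermis and molting genes had 1 of 14 above 0 and a median of -0.53 (77.1 to 126 against 92.5 to 175 RPKM), and sperm genes 5 of 39 and -0.51 (88.6 to 1550 against 186 to 1010 RPKM). Oocyte and eggshell genes had 14 of 14 above 0 and a median of 0.17 (3630 to 5060 against 3010 to 4660 RPKM). The part of these lists in the members' median was not tested. Of the 45 members, 22 (48.9%) had the same sign in both comparisons, and of all genes 49.5%.

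After repair, ttr-14 (X 10787503 to 10789700, plus strand), whose windows also hold 291 exon bases of vap-2, had the lowest value for set-32 loss. It stood at 28.28 and 13.25 RPKM in hrde-1(+R) F4 and F5, and at 2.97 to 6.35 RPKM in the 5 repaired set-32 mutants. In the repaired met-2 set-25 lines with intact set-32 it was at 2.98 and 5.47 RPKM, within the range of the mutants. The value was -1.18 ± 0.32 for set-32 (limma adjusted p = 0.558) and -1.46 ± 0.34 for met-2 set-25 (adjusted p = 0.671), neither called. Next were ttr-59 (-1.03 ± 0.32, adjusted p = 0.671) and ttr-30 (-0.91). At ttr-59, as at ttr-14, the highest repaired library was hrde-1(+R) F4, at 20.20 RPKM. The highest values for set-32 loss after repair were ttr-21 (1.33), ttr-7 (0.92) and ttr-27 (0.57).

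The loss of met-2 and set-25 was likewise compared in separate sets of libraries. Without repair 0 of 45 members were called, with 0.017% of genes higher and 0.00849% lower, and 6 members and 821 genes at an unadjusted p under 0.05. The median was 0.20 against 0.03 over all genes, with 31 of 45 above 0. With 0 genes called in each list, cuticle collagens had 95 of 125 values above 0 and a median of 0.40 (16900 to 21600 against 11900 to 16700 RPKM), and sperm genes 37 of 39 and a median of 0.75 (377 to 841 against 82.1 to 502 RPKM). Body muscle genes had 12 of 13 and 0.30, pharynx genes 5 of 5 and 0.23, and oocyte and eggshell genes 0 of 14 and -0.09. Their part in the members' values was not tested. The extremes beside ttr-6 were ttr-40 (-0.96) and ttr-20 (-0.89) at the low end and ttr-29 (1.03), ttr-59 (1.01) and ttr-8 (0.99) at the high end.

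After repair 1 member, ttr-6, was called for met-2 set-25 loss, and the members' median was 0.13 against 0.03 over all genes. Cuticle collagens had 20 of 125 values above 0 and a median of -0.66 (7390 to 17000 against 7610 to 24700 RPKM), and sperm genes 2 of 39 and -1.01 (159 to 216 against 88.6 to 1550 RPKM). Body muscle genes had 1 of 13 and -0.46, pharynx genes 1 of 5 and -0.45, and oocyte and eggshell genes 10 of 14 and 0.11. In each list 0 genes were called, and their part was not tested. With 2 members and 720 genes at an unadjusted p under 0.05, the member beside ttr-6 was ttr-14. The third lowest was ttr-10 (-1.16), and the highest were ttr-21 (1.22), ttr-44 (0.96) and ttr-51 (0.96). Of the 45 members, 21 (46.7%) had the same sign with and without repair, and of all genes 47.5%. In the interaction, the lowest members after ttr-6 were ttr-44 (-2.05 ± 1.5) and ttr-20 (-2.03 ± 1.03). The highest were ttr-54 (2.10 ± 0.95), ttr-27 (1.43 ± 0.67) and ttr-51 (0.96 ± 1.22), and all of these had a limma adjusted p of 1.0. The members' median was -0.19, against -0.01 over all genes. With 0 genes called in each list, sperm genes had 6 of 39 values above 0 and a median of -1.63. Cuticle collagens had 34 of 125 and -0.30, and hypodermis and molting genes 14 of 14 and 0.54. Their part was not tested. The set-32 met-2 set-25 strain carried ok1457 with never-mutated hrde-1 and red11 with hrde-1(tm1200).

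**Figure D5:**
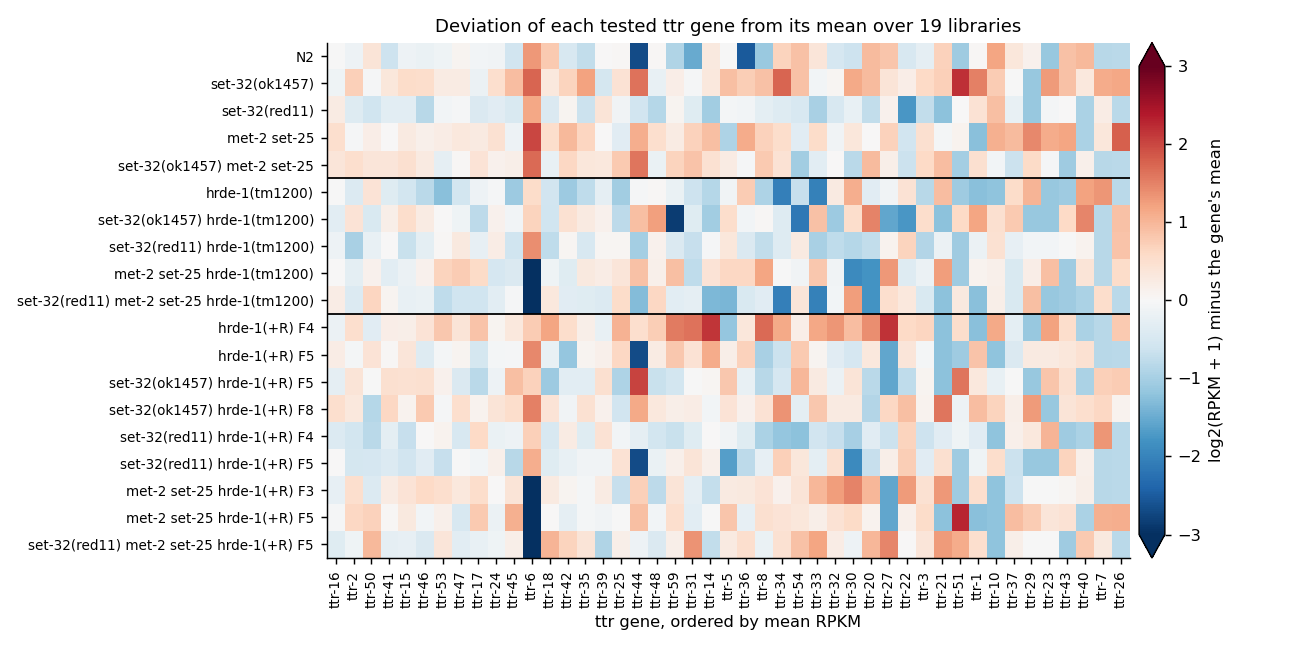
Deviation of each of the 45 tested ttr genes (columns, ordered by mean RPKM) from its own mean of log2(RPKM + 1), in 19 libraries (rows, with black lines between never-mutated, hrde-1(tm1200) and repaired libraries). Red is above and blue below the gene's mean, with colours capped at 3 in either direction. The ttr-6 column is dark blue in the 5 met-2 set-25 libraries with or after tm1200, and no other column is dark in the same 5 rows.

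The 2 set-32 alleles were also set against each other. This comparison was added after the members' levels had been seen, so it describes a pattern noticed in them. It used the 5 set-32(ok1457) and 6 set-32(red11) libraries, with hrde-1 state and met-2 set-25 as terms. By limma 0 of 45 members were called, and 0.0% of all genes were called in either direction. At an unadjusted p under 0.05 there were 12 members and 1315 genes, which is 11.2% of all genes. Of the 45 values, 36 were above 0 in set-32(ok1457), and their median log2 value was 0.33. All genes had a median of 0.04, and 55.0% of them were above 0. The median lay between 0.19 and 0.52 over 23 alternatives, and among the 16 members averaging at least 10 RPKM it was 0.21, with 14 above 0.

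At 5 of the 45 members, ttr-2, ttr-15, ttr-41, ttr-44 and ttr-46, every set-32(ok1457) library lay above every set-32(red11) library, and at 0 members the reverse held. Over all genes, 1.06% were higher without overlap and 0.45% lower. The ttr-2 window read 135.72 RPKM in set-32(ok1457), 116.32 with met-2 set-25, 109.01 with hrde-1(tm1200), and 107.60 and 102.84 after repair at F5 and F8. In set-32(red11) it read 62.81 RPKM, then 41.11 with hrde-1(tm1200), 61.97 with hrde-1(tm1200) and met-2 set-25, 56.09 and 56.91 after repair at F4 and F5, and 74.81 in the repaired met-2 set-25 line. The means were 114 ± 12.9 (SD, n = 5) and 58.9 ± 11 RPKM (n = 6), and the 8 libraries with intact set-32 spanned 61.28 to 126.68 RPKM. Its fitted difference was 0.94 ± 0.14 on the log2 scale (limma adjusted p = 0.0786).

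The largest difference among members was at ttr-44, with 10.90 to 25.28 RPKM in set-32(ok1457) against 0 to 4.75 RPKM in set-32(red11), and 0 to 12.56 RPKM with intact set-32. It was fitted at 2.41 ± 0.44 on the log2 scale (limma adjusted p = 0.0893). It was called by limma when values were taken from exon windows (1.94 ± 0.26, adjusted p = 0.0325), which also hold 459 bases of other exons. It was also called with the window of largest overlap (adjusted p = 0.0223) and in single windows (adjusted p = 0.041). The latter fits gave the same value of 2.41 at ttr-44 and differ in the other genes or windows tested, so they add no separate measurement. The window of ttr-15 read 57.85 to 78.85 against 32.96 to 45.69 RPKM, that of ttr-41 69.76 to 94.66 against 46.14 to 64.59, and that of ttr-46 52.32 to 76.25 against 24.10 to 44.24. In all 3 the libraries with intact set-32 overlapped both alleles. At ttr-33 the value was 1.05 ± 0.45 (adjusted p = 0.42), with overlapping alleles. At ttr-6 it was 0.91 ± 0.59 (adjusted p = 0.593). The lowest values were ttr-27 (-0.68), ttr-59 (-0.49) and ttr-25 (-0.45).

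The placed ttr genes summed to 919 ± 103 RPKM in set-32(ok1457), 681 ± 70.9 in set-32(red11) and 844 ± 123 with intact set-32. Other lists, with 0 genes called in each, were not centred on 0. Sperm genes had 37 of 39 values above 0 in set-32(ok1457) and a median of 0.83, with sums of 88.6 to 1550 against 82.1 to 400 RPKM. Cuticle collagens had 92 of 125 above 0 and a median of 0.52, with sums of 7610 to 20900 against 11900 to 17000 RPKM. Oocyte and eggshell genes had 1 of 14 above 0 and a median of -0.34, with sums of 2990 to 4760 against 3630 to 5220 RPKM. Their part in the members' values was not tested. An allele and the line that carries it cannot be told apart.

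By hrde-1 state, the sum over the placed ttr genes was 875 ± 164 RPKM (SD, n = 5) in never-mutated, 721 ± 78.1 (n = 5) in hrde-1(tm1200) and 828 ± 135 (n = 9) in repaired libraries. The ranges, 659 to 1020, 630 to 811 and 607 to 1010 RPKM, overlapped. Over the members that do not share windows, the sums were 551 ± 138, 461 ± 72.6 and 558 ± 113 RPKM in the same order. The set-32 alleles are spread unevenly over these groups, and their part was not tested.

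The pattern of ttr-6 across the 19 libraries was set beside that of all other tested genes by Pearson correlation of log2(RPKM + 1), as a description. The closest were T15B7.1 (r = 0.852), lgc-54, a ligand-gated ion channel gene (0.825), C23H5.8 (0.803), T08D2.6 (0.781) and pnc-1, which encodes a nicotinamidase (0.78). None of these 5 was at 0 in all 5 libraries while above 0 in all 14, and in T08D2.6 the 14 included libraries at 0. Among ttr genes the closest was ttr-24 (0.598) and the lowest was ttr-50 (-0.423). Without the 5 libraries at 0 the SD of ttr-6 was 0.46 on the log2 scale. Over all 19 libraries the median SD was 0.79 for tested members, most of them lower in level than ttr-6, and 0.40 for all genes tested.

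The tested-level filter bears on what could be seen. The 8 tested members not described above, ttr-5, ttr-18, ttr-23, ttr-37, ttr-39, ttr-42, ttr-43 and ttr-47, averaged 1.40 (ttr-43) to 37.4 RPKM (ttr-47), and their fitted values over the 9 comparisons ran from -0.96 to 0.91 on the log2 scale. The 9 placed members below 1 RPKM were ttr-9, ttr-19, ttr-28, ttr-38, ttr-49, ttr-52, ttr-55, ttr-56 and ttr-58, and ttr-19 was listed at 0 in all 19 libraries. Of the 45 tested members, 12, with ttr-6 among them, had at least 100 exon bases of another gene in their windows, and 33 did not. None of the 61 windows of the members carried a yes in the authors' deposited marks headed GRH, GRTS and misannotated, of which the file gives no account.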

How the data were processed

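Total RNA of whole young adult worms was sequenced, with 1 library per genotype and generation. The deposited values are RPKM, made by the authors for 100257 windows of 1 kb, beside yes or no marks with no numeric unit. Per the submitters' processing notes, the aligner was Bowtie 0.12.7. What build, filters, strand setting and rule for repeated matches they used is not given in the sources used here. In all, 19 libraries of 23 samples were used, and the 4 of generation F20 were not analysed here. A further 24 columns were not used.

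WBcel235 genes were laid over the windows after 202 stretches of up to 500 windows were checked, by whether window levels followed exon bases best with no shift. In 198 they did. Of the 4 others, all on chromosome V, those at its right end, which hold 4 members, were left out, and 1 with no ttr gene was kept. A gene took the mean of the windows it overlapped by at least 500 bp, or its best window. A member was reported as sharing its windows from 100 exon bases of another gene.

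Genes with a mean of at least 1 RPKM were tested with limma 3.58.1 in R 4.3.3, with lmFit and eBayes with trend on log2(RPKM + 1) and Benjamini-Hochberg adjustment over all of them. Each fit held additive terms for the mutations not under test, with strains in place of replicates. Depth was read from the step between low values. Of the low values above 0, 80.9% to 85.1% were whole reads within 0.0051 RPKM. The unit was taken to be RPKM, so no count test was run.

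The members and lists were chosen with earlier results of these data known. Members were named if called, among the 3 highest or 3 lowest in a comparison, among the highest in level or the most or least variable, near another member, or of known role. Similarity to the ttr-6 protein was to be a further reason and was not computed, because protein sequences were not used here. The set-32 allele comparison, the level per exon kb, the windows chosen by exon, the grouping of 5 against 14 libraries, the hrde-1(tm1200) fit without 2 libraries and that with genetic background as a block were added after seeing the data.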

Additional observations from a re-analysis of the deposited data

Results flagged for a closer look

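At 25 named members and the family sum, the highest and lowest library of each hrde-1 state was compared with its neighbour, in 78 groups of 5 or 9 libraries. A library stood apart by Dixon's criterion in 7 groups, where chance gives about 1 in 20.

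After repair, hrde-1(+R) F4 stood apart at 3 members: ttr-14 at 28.28 RPKM with the next library at 13.25, ttr-59 at 20.20 with 11.59 next, and ttr-8 at 16.16 with 6.38 next. That library has the highest collagen sum, and the part of this was not tested. Among hrde-1(tm1200) libraries, ttr-8 reached 10.83 RPKM in the met-2 set-25 strain with 4.36 next, and ttr-20 reached 8.72 RPKM in set-32(ok1457) hrde-1(tm1200) with 1.75 next. In hrde-1(tm1200) alone ttr-10 was lowest, at 0 RPKM, with 1.55 next. Among never-mutated libraries, ttr-51 read 8.6 RPKM in set-32(ok1457) with 1.26 next.

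At ttr-6 the limma interaction of hrde-1(tm1200) with met-2 set-25 was called, at -4.69 on the log2 scale (adjusted p = 0.0139). The call comes from the libraries in which ttr-6 was singled out and was kept in 11 of 22 alternatives, and line and genotype cannot be told apart. It stood at 0 in both hrde-1(tm1200) libraries that lack met-2 and set-25.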

How the results depend on the processing

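Of 1889 alternative values for 76 results, 1828 kept their direction and their side of the threshold, or stayed near the main value. For ttr-6, the call for met-2 set-25 loss after repair was kept throughout, from -4.55 to -4.24 on leaving out each library, and its count of 1 called member fell to 0 without the members that share windows, ttr-6 among them. The call in the interaction with hrde-1(tm1200), and with it the count of 1 called member, was lost with a pseudocount of 5 (-2.60, adjusted p = 0.38), no filter (-4.69, 0.102), no trend (-4.69, 0.0616), set-32(ok1457) alone as set-32 mutants (-4.27, 0.779) and set-32(red11) alone (-5.23, 0.264). The count was also 0 without members that share windows, and 0 to 1 on leaving out each library, where ttr-6 ran from -4.96 to -4.42. In single windows ttr-6 was called for hrde-1(tm1200) (-2.40, adjusted p = 0.0383), which gave 1 called member. In the set-32 allele comparison 1 member, ttr-44, was called with the window of largest overlap, 1 with exon windows and 1 in single windows.

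Directions that turned belonged to values that were not called. For ttr-6, set-32 loss without repair was -0.42 with set-32(red11) alone, and after repair 0.01 with set-32(ok1457) alone. On leaving out each library these ran from -0.42 to 0.75 and from -0.23 to 0.14, and repaired against hrde-1(tm1200) from -0.05 to 0.49. With set-32(ok1457) alone, ttr-22 was -0.35 for hrde-1(tm1200), and ttr-27 (-0.77) and ttr-30 (0.12) turned for set-32 loss after repair. Without met-2 set-25 libraries ttr-27 was -0.66 for set-32 loss after repair and 0.38 for repaired against hrde-1(tm1200). In exon windows ttr-40 was -0.34 for hrde-1(tm1200) and 0.39 for repaired against hrde-1(tm1200), ttr-48 was 0.02 in the latter, ttr-25 was 0.19 between the alleles and ttr-51 was -0.44 in the interaction, where it was -0.36 with set-32(red11) alone. On leaving out each library, ttr-51 in the interaction ran from -0.34 to 2.25, ttr-27 for set-32 loss after repair from -0.66 to 2.03, ttr-31 for repaired against never-mutated from -0.03 to 0.99 and ttr-59 between alleles from -0.75 to 0.09. The cause was not tested.

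No paired analysis was possible because the labels give no replicate numbers, which concerns pairing by number alone. Matched instead by genetic background as a block, in 4 pairs, hrde-1(tm1200) gave 0 called members, a members' median of -0.29 and -1.73 ± 0.8 at ttr-6 (adjusted p = 0.743). Below about 5 RPKM a value rests on a few reads, which limits what can be seen at most members.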
